A study of Mus musculus with 8 samples.

Results

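The genes described here are 8 interferon-inducible GTPases, 4 guanylate-binding proteins (Gbp2, Gbp3, Gbp6 and Gbp7) and 4 immunity-related GTPases (Igtp, Irgm1, Irgm2 and Iigp1), of 18194 genes measured in tumours of mice lacking endosomal Toll-like receptors (TLRs). They were chosen by symbol, and each gene was read from the probe set with the highest mean signal over all 8 arrays. MOPC cells, a mouse oropharyngeal carcinoma line, were injected subcutaneously into WT C57BL/6 mice or into Tlr3/7/9-/- mice (KO), which lack TLR3, TLR7 and TLR9, and tumours were taken at day 4 or day 6. Each of the 4 groups held 2 tumours, each read on 1 Affymetrix Mouse Genome 430 2.0 array. The genotype is that of the host, while the injected cells were of the same line in all groups. The labels give no age or sex for single hosts and do not say which mouse each tumour came from. P-values therefore measure the spread between tumours of a group, which may in part be technical. That spread was estimated once per gene from all 4 groups together, so every group enters the p-values of every comparison. Arrays of whole tumours read all cells together, and fewer cells of a type and less RNA per cell cannot be told apart.

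Interferon-inducible GTPases are enzymes of cell-autonomous immunity, made in most cell types after exposure to interferon-gamma and, for many of them, to type I interferon. Guanylate-binding proteins assemble on the vacuoles and surfaces of intracellular microbes and promote inflammasome activation. Immunity-related GTPases comprise effectors such as Iigp1, which coats and disrupts parasite vacuoles, and the regulators Irgm1, Irgm2 and Igtp (also called Irgm3), which sit on the cell's own membranes and hold the effectors in check there. Interferon-gamma induces such genes through gamma-activated sites (GAS), bound by STAT dimers, and through interferon-stimulated response elements (ISRE), bound by IRF factors and by STAT complexes that include IRF9.

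Promoter sequence was read for 6 of the 8 genes in RefSeq (GRCm38.p6), and none was read for Gbp6 and Iigp1. The 120 bases before the annotated start of each gene are printed because all 6 hold the same element close to the start. Capitals mark the ISRE core (GAAA, any 2 bases, GAAA, or on the other strand TTTC, any 2 bases, TTTC) and the GAS (TTCNNNGAA, the same on both strands).
Gbp2, chr3:142620543-142620662, plus strand: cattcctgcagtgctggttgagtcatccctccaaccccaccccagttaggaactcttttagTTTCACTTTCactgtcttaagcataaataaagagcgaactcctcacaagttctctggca
Gbp3, chr3:142559924-142560043, plus strand: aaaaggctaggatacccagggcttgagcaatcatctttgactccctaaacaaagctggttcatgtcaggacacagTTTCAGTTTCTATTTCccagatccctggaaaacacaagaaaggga
Gbp7, chr3:142530216-142530335, plus strand: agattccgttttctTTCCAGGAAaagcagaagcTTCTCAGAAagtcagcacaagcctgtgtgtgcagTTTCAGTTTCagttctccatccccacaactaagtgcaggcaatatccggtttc
Igtp, chr11:58199436-58199555, plus strand: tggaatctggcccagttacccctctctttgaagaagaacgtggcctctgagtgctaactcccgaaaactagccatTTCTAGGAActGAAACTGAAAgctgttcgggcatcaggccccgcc
Irgm1, chr11:48871421-48871540, minus strand: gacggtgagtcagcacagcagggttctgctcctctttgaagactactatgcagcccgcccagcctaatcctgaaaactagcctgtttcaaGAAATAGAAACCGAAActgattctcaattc
Irgm2, chr11:58214857-58214976, plus strand: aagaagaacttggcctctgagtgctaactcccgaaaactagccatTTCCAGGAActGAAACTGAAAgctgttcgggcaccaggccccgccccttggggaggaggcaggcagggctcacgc

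An ISRE core lay within 70 bases of a start in 6 of 6 genes, counted over any window of a gene. The limit of 70 bases just takes in the farthest of these sites, 64 bases before the start of Irgm2. Shares within 70 bases therefore depend on that limit. Within 250 bases the count was also 6 of 6. Of all 32851 single promoter windows, 0.676% held it there and 2.98% anywhere in the 250 bases before the start. Related genes read in the same way held it within 70 and within 250 bases as follows. Other guanylate-binding proteins gave 0 of 2 and 2 of 2, other immunity-related GTPases 2 of 8 and 3 of 8. Type I interferon genes gave 2 of 17 and 7 of 17, other interferon-gamma response genes 0 of 16 and 2 of 16. Gbp3 and Irgm1 each carried 2 overlapping matches. Gbp3 has a second annotated start, whose window held no match. A GAS was found in Gbp7 (2 sites), Igtp and Irgm2, against 7.02% of all windows, and 0.332% of all windows held both elements. These genes are not independent in sequence. Igtp and Irgm2 are neighbours on chromosome 11 with 0 protein-coding genes between them, and their stretches share a run of 38 bases that ends inside their GAS. After a mismatch the same letters resume through the whole ISRE core of both genes, so these ISRE cores are not separate matches. Gbp3 and Gbp7 shared a run of 13 bases that holds a whole ISRE core of each gene, so these may not be separate matches either. No other pair shared a run as long. Gbp7 and Gbp3 are likewise neighbours, on chromosome 3, and Gbp2b lies between Gbp3 and Gbp2. A match describes letters only, and no binding was measured here.

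**Figure D1:**
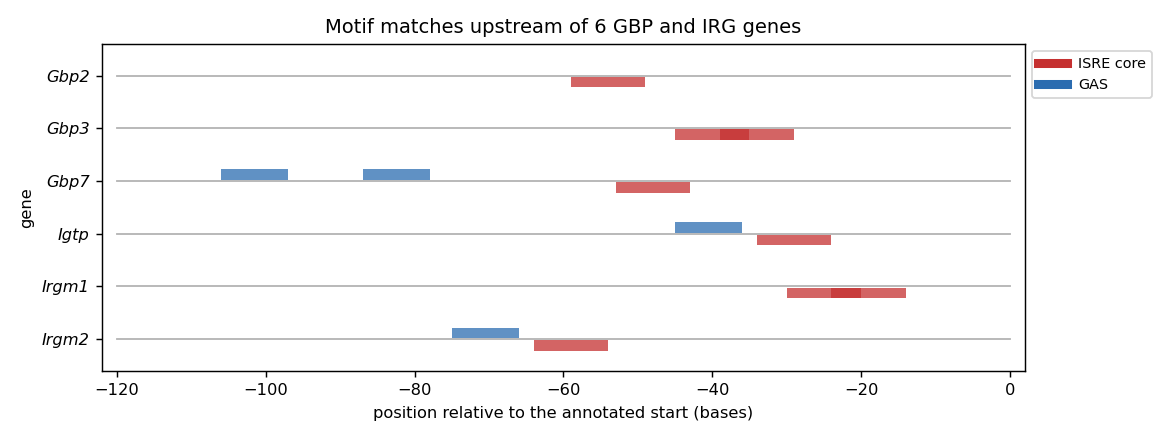
Positions of the ISRE core and GAS letters in the 120 bases before the annotated start of 6 GTPase genes (horizontal axis, bases relative to the start, with one line per gene, red bars for ISRE cores and blue bars for GAS). Every gene has at least 1 ISRE core within 70 bases of the start, and Gbp7, Igtp and Irgm2 also hold a GAS.

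The arrays were checked first. Tlr7, one of the deleted genes, read 382.9 to 673.4 in WT and 10.8 to 80.1 in KO, Tlr3 read 543.9 to 811.1 in WT and 224 to 427.2 in KO, and Tlr9 lay below the filter on low signals used here, so it checks nothing. The 10 epithelial carcinoma markers, which may read host skin as well as the tumour line, all passed that filter. They summed to 87134.3 on KO day 6 replicate 2, which also carried skin markers, and to 44805.6 to 57001.1 on the other arrays. Skin and muscle markers stood apart on single arrays. Krt10, a keratin of upper skin layers, read 9762.5 on KO day 6 replicate 2 against at most 599.4 elsewhere, and Acta1, skeletal muscle actin, read 34992 on WT day 4 replicate 2, 22022 on KO day 6 replicate 2 and 9824 on KO day 4 replicate 2 against at most 652.8 elsewhere. Xist, expressed from the inactive X chromosome, read at least 5579 on every day 6 array and at most 142.1 on every day 4 array, while the Y-linked Eif2s3y ran the opposite way, so the sex of the tissue and the day cannot be told apart in any comparison of days.

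All 8 GTPase genes passed the filter, which was set on the mean of log2(signal + 16) over the 8 arrays and corresponds to a signal of 78.6 on that scale, and their lowest signal on any array was 178.4. Signals below are the authors' MAS5 values, scaled so that the trimmed mean of each array is 1000, and they are given as replicate 1 and replicate 2. Levels of different probe sets are not compared.

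Gbp2 (probe set 1435906_x_at) read 1024.4 and 1610.5 in WT and 902.4 and 628.1 in KO at day 4, and 8505.3 and 5230.1 in WT and 20582.9 and 9501.7 in KO at day 6. For Gbp3 (1418392_a_at) the day 4 signals were 611.5 and 931.5 in WT and 655.7 and 578.9 in KO, followed at day 6 by 1948.9 and 1355.1 in WT and 4896.3 and 1628.2 in KO. In both genes each day 6 array exceeded all 4 day 4 arrays, and at day 6 both KO arrays of Gbp2 lay above both WT arrays, whereas KO replicate 2 of Gbp3 lay between the WT arrays.

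Gbp6 (1447927_at) had day 4 signals of 178.4 and 466.3 in WT and 248.8 and 246.3 in KO, and day 6 signals of 2138.5 and 1698 in WT and 7102.4 and 2058.2 in KO. In Gbp7 (1434380_at) they were 1421.8 and 2403.8 in WT and 1168.9 and 1067.1 in KO at day 4, then 4085.4 and 3066.3 in WT and 7996.7 and 3982.2 in KO at day 6. The days did not overlap for either gene, and KO day 6 replicate 2 fell between the WT day 6 arrays for both.

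The regulator Igtp (1417141_at) read 1466.7 and 1856.9 in WT and 1104.6 and 1062.2 in KO at day 4, and 5180.6 and 4284.9 in WT and 20003.9 and 6169.9 in KO at day 6. Signals of the regulator Irgm1 (1418825_at) were 1874 and 2194.7 in WT and 1414.2 and 1691.8 in KO at day 4, and 4839.5 and 4170 in WT and 12775.6 and 4682.2 in KO at day 6. Irgm2 (1417793_at), the third regulator, gave 886.8 and 1681.6 in WT and 559.7 and 546.5 in KO at day 4, and 3107.8 and 2371.5 in WT and 8751.8 and 3690.8 in KO at day 6. For Igtp and Irgm2 the 4 groups separated in one order, with KO below WT at day 4 and above WT at day 6. Irgm1 followed the same order except that KO day 6 replicate 2 lay between the WT day 6 arrays.

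The effector Iigp1 (1419043_a_at) read 1220.9 and 1943.9 in WT and 1019.7 and 855.3 in KO at day 4, and 7934.7 and 6121.1 in WT and 23599.3 and 9663.8 in KO at day 6, again with no overlap between any of the groups. KO day 6 replicate 1 was the highest of the 8 arrays for all 8 genes.

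**Figure D2:**
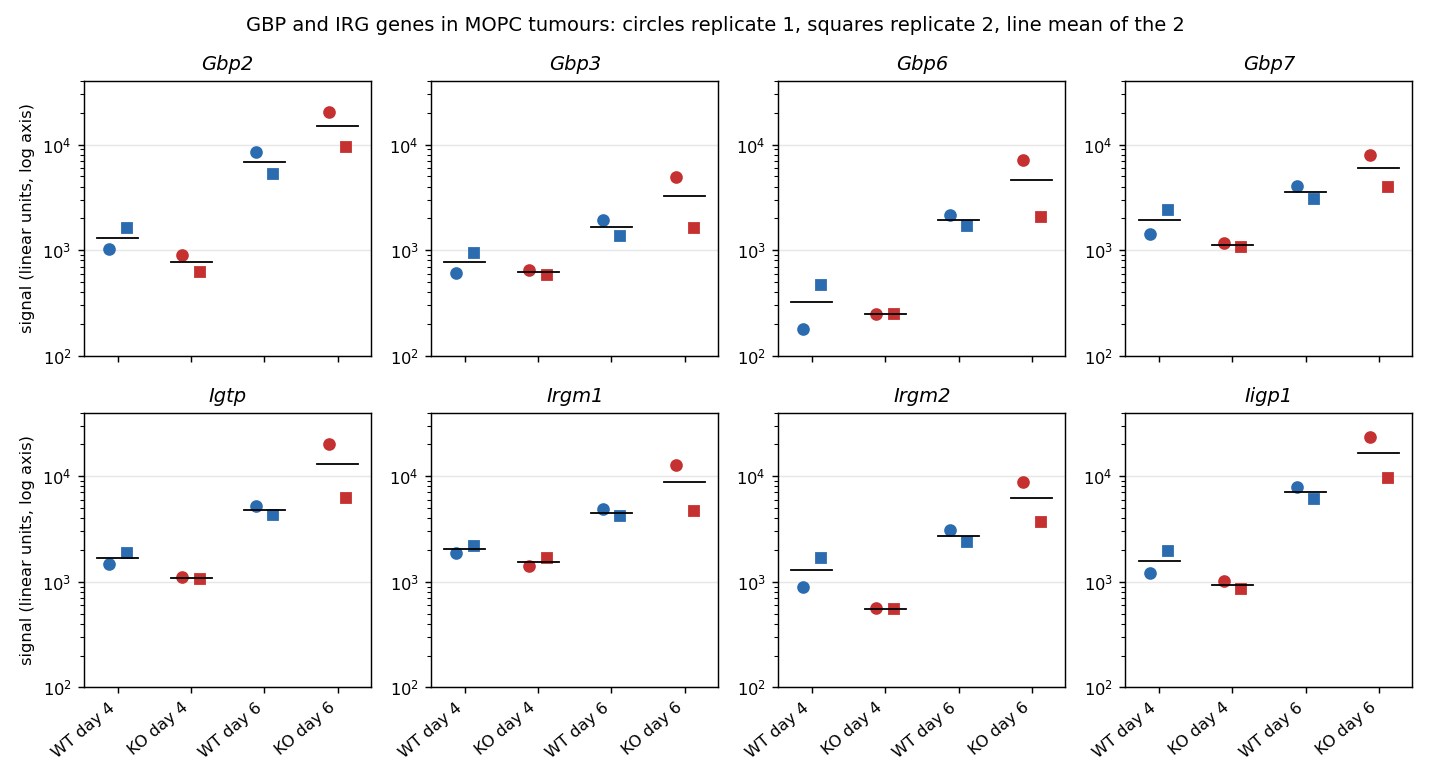
MAS5 signal (vertical axis, log scale) of the 8 GTPase genes on each of the 8 arrays, by genotype and day, with each point 1 tumour. All 8 genes read higher on every day 6 array than on any day 4 array, and KO day 6 replicate 1 is the highest point in each panel.

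Between day 4 and day 6 in KO tumours, all 8 GTPase genes rose, from 4.50-fold for Gbp3 to 18.2-fold for Gbp2. In this comparison 3.71% of all 12976 genes tested were called higher and 2.52% lower (limma, adjusted p under 0.05 by Benjamini-Hochberg). Changes are log2 differences of signal plus 16, a constant that shrinks changes of dim genes, with a standard error (SE) and n = 2 arrays a group. Gbp2 rose by 4.19 (SE 0.39, adjusted p = 0.00496 by limma), the vacuole effector Iigp1 by 3.99 (SE 0.38, adjusted p = 0.00538) and Gbp6 by 3.87 (SE 0.56, adjusted p = 0.0176). Igtp rose by 3.34 (SE 0.44, adjusted p = 0.0132) and Irgm2 by 3.32 (SE 0.40, adjusted p = 0.0118), about 10.1-fold and 10.02-fold. The increases were smallest in Gbp7 (2.32, SE 0.34, adjusted p = 0.0183), Irgm1 (2.31, SE 0.38, adjusted p = 0.0220) and Gbp3 (2.17, SE 0.45, adjusted p = 0.0347). Each step in this order was smaller than the SE of at least 1 of its genes, except the step from Irgm2 to Gbp7. The median over the 8 genes was 3.33, against -0.00 over all genes tested. Both day 6 arrays exceeded both day 4 arrays in 8 of 8 genes, as in 30.7% of all genes tested. Without either KO day 4 array 0 of the 8 genes were called, with medians of 3.35 and 3.31 and 1 array then left in that group, and without KO day 6 replicate 1 Gbp3 was lost (1.38, adjusted p = 0.080). Fitted without the trend of spread on signal, 3 of the 8 genes (Gbp2, Irgm2 and Iigp1) were called. The number called over all genes also moved between these settings, as given at the end.

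In WT tumours the same comparison of days called 3 of the 8 genes higher, where 4.16% of all genes tested were called higher. Gbp6 rose 6.28-fold (log2 2.65, SE 0.56, adjusted p = 0.0344), Gbp2 rose 5.14-fold (2.36, SE 0.39, adjusted p = 0.0210) and Iigp1 rose 4.49-fold (2.17, SE 0.38, adjusted p = 0.0235). These genes also had the largest changes in KO tumours. The other 5 genes did not pass, with values of 1.50 for Igtp (SE 0.44, adjusted p = 0.0763), 1.14 for both Irgm1 and Irgm2 (adjusted p = 0.107 and 0.124), 1.09 for Gbp3 (adjusted p = 0.173) and 0.93 for Gbp7 (adjusted p = 0.133). Even so, both day 6 arrays exceeded both day 4 arrays in 8 of 8 genes, as they did for 29.1% of all genes tested. The number called moved with the setting: 6 genes passed after median centring, 5 without either KO day 6 array, 2 without WT day 6 replicate 2 and 0 without WT day 6 replicate 1, WT day 4 replicate 1 or either KO day 4 array. It was also 0 with the 2 WT groups fitted alone or without the trend of spread on signal. The number called over all genes moved as well, and median centring called 1784 against 756, with 91.0% of them higher. The counts over all genes in the other settings are given at the end.

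**Figure D3:**
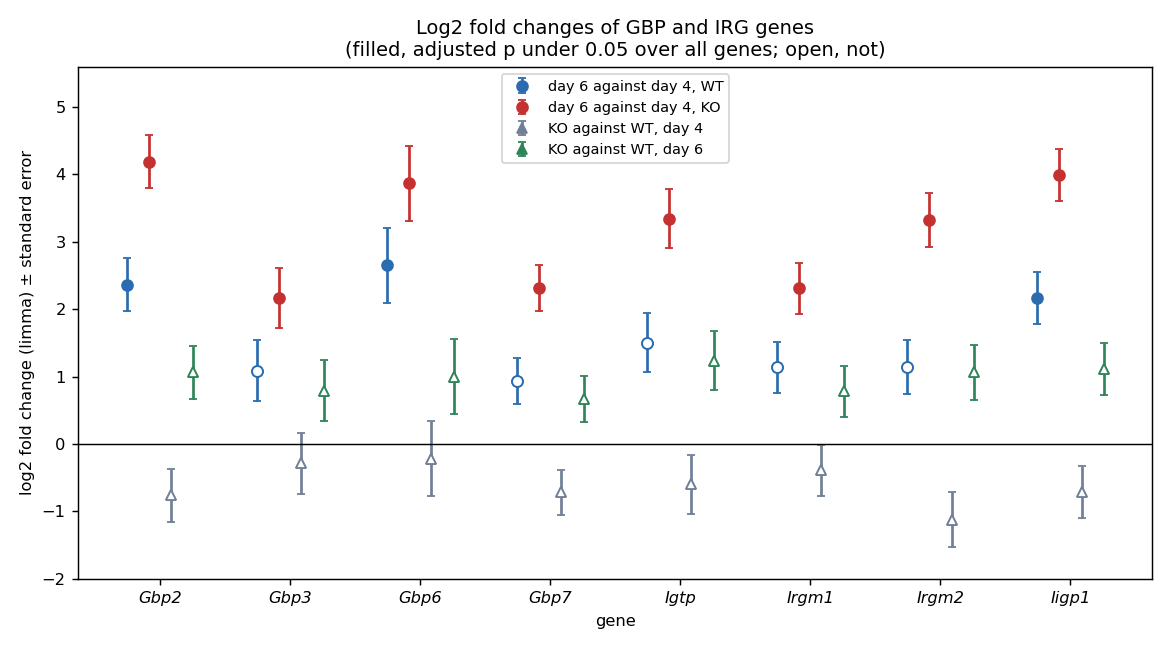
Log2 fold changes with standard errors (vertical axis, limma on signal plus 16) of the 8 genes for day 6 against day 4 in WT and in KO and for KO against WT at each day, filled where the adjusted p over all genes was under 0.05. All 8 KO day changes are filled, 3 WT day changes are, and no KO against WT value is.

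The comparison of KO with WT asks whether loss of the 3 receptors in the host goes with another level of these genes in the tumour. At day 6 the 8 genes lay 0.67 to 1.24 log2 above WT, with a median of 1.03 against -0.01 over all genes tested, and 0 of 8 were called where 0.0154% of all genes tested were. The sign was positive in 8 of 8, against 48.3% of all genes tested. The largest value was that of Igtp (1.24, SE 0.44, 2.35-fold, adjusted p = 0.760), followed by Iigp1 (1.11, SE 0.38), Gbp2 (1.07, SE 0.39) and Irgm2 (1.06, SE 0.40), each with an adjusted p of 0.760. In these 4 genes both KO arrays lay above both WT arrays, as in 16.1% of all genes tested, and their unadjusted p was under 0.05. The other 4, Gbp6 (0.9997, SE 0.56), Gbp3 (0.79, SE 0.45), Irgm1 (0.78, SE 0.38) and Gbp7 (0.67, SE 0.34), overlapped between the genotypes. With 2 arrays a group, an exact two-sided permutation test of one gene cannot give a p below 0.333. The size depended on a single array: the median over the 8 genes was 0.28 without KO day 6 replicate 1 and 1.65 without KO day 6 replicate 2.

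At day 4 the same genes read lower in KO than in WT, by 0.22 to 1.12 log2, and again 0 of 8 were called (0.0154% of all genes tested). The sign was positive in 0 of 8, against 51.7% of all genes tested. Irgm2 had the largest difference (-1.12, SE 0.40, adjusted p = 0.626) and the only unadjusted p under 0.05 among the 8. Gbp2 (-0.76, SE 0.39), Gbp7 (-0.72, SE 0.34), Iigp1 (-0.71, SE 0.38), Igtp (-0.60, SE 0.44) and Irgm1 (-0.39, SE 0.38) also had both KO arrays below both WT arrays, which held for 16.8% of all genes tested, whereas Gbp3 (-0.29, SE 0.45) and Gbp6 (-0.22, SE 0.56) overlapped. The higher WT values rested in part on WT day 4 replicate 2, the array with the highest muscle signal. Without it the median over the 8 genes went from -0.66 to -0.36, and Gbp3 (0.011) and Gbp6 (0.44) changed sign. Whether muscle in that tumour had a part in these values was not tested.

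The difference between the KO effects of the days, which is also the difference between the day changes of the genotypes, was positive for 8 of 8 genes, against 45.9% of all genes tested, and called for 0 of 8, as for 0 of all 12976 genes tested (568 of these had an unadjusted p under 0.05). It ranged from 1.08 for Gbp3 (SE 0.64) to 2.18 for Irgm2 (SE 0.57), with 1.82 for Gbp2 (SE 0.55), 1.83 for Iigp1 (SE 0.54) and 1.84 for Igtp (SE 0.62), and every adjusted p was 0.995. A larger rise in KO than in WT was therefore not shown by this test. The KO comparisons and the day comparisons share arrays, so they are given side by side and are not counts of separate evidence.

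In the 8 genes, tumours of a group differed most at day 6 in KO. As the spread is shared by the 4 groups, this pair also enters the p-values of the WT comparison of days. KO day 6 replicate 1 exceeded replicate 2 in 8 of 8 genes, from 2.004-fold in Gbp7 to 3.43-fold in Gbp6, with a median difference of 1.37 log2 against 0.18 over all genes tested, and 4.37% of all genes differed by at least as much as the least of the 8. In WT at day 4 replicate 2 exceeded replicate 1 in all 8 genes (median 0.65 log2, against 0.25 over all genes tested). In WT at day 6 replicate 1 was the higher for all 8 (median 0.38, against 0.21). In these WT pairs 53.5% and 48.4% of all genes differed by at least as much as the least of the 8. Over all genes tested the median difference was thus largest in WT at day 4. The KO day 4 tumours lay closest together, with a median difference of 0.15 in the 8 genes and 0.15 over all genes tested. KO day 6 replicate 2, the lower of its pair, was also the array with Krt10 and Acta1 signal, and the part of skin or muscle tissue in the difference between the KO tumours was not tested.

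A second probe set was present for 4 of the 8 genes, and each gave the same signs in all 4 comparisons. For day 6 against day 4 in KO it gave 3.65 for Gbp2, 2.69 for Gbp6, 2.17 for Gbp7 and 4.31 for Iigp1, and in WT 1.87, 1.28, 0.68 and 2.67. The Gbp6 values were over 1 log2 lower than those of the probe set used. Guanylate-binding proteins are close paralogs, and the suffix _x_at marks probe sets whose probes can match other transcripts, so part of the Gbp2 signal may come from relatives. Gbp4, Tgtp1 and Tgtp2 were read only by probe sets annotated with several genes and are not given.

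Of 21 other genes on the lists of these families, 6 were measured and 4 were tested, and 3 of these 4 rose in KO between the days. Gbp8 rose by 3.46 (SE 0.62, adjusted p = 0.0249), Ifi47, which encodes the effector Irgd, by 3.25 (SE 0.41, adjusted p = 0.0127), and Gm4951 by 3.06 (SE 0.43, adjusted p = 0.0161). In WT the same 3 genes gave 2.36, 1.50 and 1.11 and did not pass, with adjusted p of 0.0617, 0.0661 and 0.152. Irgq, a relative that is not interferon-induced, gave -0.05 in KO and -0.45 in WT. Gbp2b and Irgc1 lay below the filter. Without either KO day 4 array none of the 3 was called, and Gbp8 was also lost without either KO day 6 array. Ifi47 was also the gene nearest to the mean profile of the 8 over the arrays, among all genes tested outside them, by root mean square difference of centred log2 values (0.179, where the 8 genes themselves had 0.153 to 0.485). It was followed by Gm4951 (0.297), the chemokine Ccl12 (0.475), the beta-glucan receptor Clec7a (0.478), the interleukin-18 inhibitor Il18bp (0.481) and the transcription factor Batf2 (0.491).

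Genes that carry the interferon-gamma signal were measured on the same arrays. Ifng, which encodes interferon-gamma, lay below the filter on mean log2 signal, with signals of 25.4 and 32.9 in WT and 31.5 and 9.5 in KO at day 4, and 177.5 and 106.5 in WT and 396.1 and 177.8 in KO at day 6. As with the GTPase genes, the days did not overlap and KO day 6 replicate 1 was the highest array. In the fit of all 18194 genes with no filter its change between days was 3.02 in KO (SE 0.51, adjusted p = 0.0319) and 1.77 in WT (SE 0.51, adjusted p = 0.0993). Of the 11 tested genes of receptor and signalling, 2 were called higher and 1 lower in KO, and 1 was called higher in WT. The changes were positive in 9 of 11 in KO and in 6 of 11 in WT. Over all genes tested, 3.71% were called higher and 2.52% lower in KO, and 4.16% higher in WT. Irf1, a transcription factor that acts on ISRE elements, rose by 2.02 in KO (SE 0.24, adjusted p = 0.0110) and by 1.24 in WT (SE 0.24, adjusted p = 0.0280). Socs1, a feedback inhibitor of the receptor's kinases, rose in KO by 2.23 (SE 0.26), while Ifngr1, the ligand-binding receptor chain, fell by 0.60 (SE 0.14, adjusted p = 0.0478). Without either KO day 4 array none of these KO calls was made. The call of Ifngr1 was also lost without any day 6 array. The number called higher in KO was larger without either WT day 4 array. The WT call was lost without any WT array or either KO day 4 array. Jak1, which encodes a kinase bound to the receptor, gave -0.23 in KO and -0.42 in WT.

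Other interferon-gamma response genes were called higher in 14 of 22 tested in KO and in 2 of 22 in WT, against 3.71% and 4.16% of all genes tested. The changes were positive in 17 of 22 in KO and in 19 of 22 in WT. Their medians were 1.32 and 0.65, against 3.33 and 1.32 for the 8 GTPase genes. The chemokine Cxcl9 rose by 4.56 in KO and 3.51 in WT, and Ubd, a ubiquitin-like modifier, by 3.72 and 3.30. The peptide transporter Tap1 rose by 2.05 and the checkpoint ligand Cd274 by 2.34 in KO, and neither was called in WT. The 4 tested genes of this list with the highest mean signal, B2m, H2-D1, H2-K1 and H2-Aa, which encode parts of MHC molecules, were not called in either genotype. The count in KO was 0 without either KO day 4 array and 5 without KO day 6 replicate 1. In WT it was 0 without WT day 6 replicate 1 or either KO day 4 array, 1 without either WT day 4 array and 4 without either KO day 6 array.

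Type I interferon genes were mostly not called between the days. In KO 2 of 18 were called higher, Rsad2 (1.43), an antiviral enzyme, and Rtp4 (1.34), with 14 of 18 positive and a median of 0.58. In WT 0 of 18 were called, with 14 of 18 negative and a median of -0.31. The difference of the KO effects between the days was positive in 16 of 18 (median 0.88) and called in 0. The KO count was 0 without either KO day 4 array, 1 without either WT day 6 array or KO day 6 replicate 1, and 5 without KO day 6 replicate 2. Autophagy conjugation genes, which place Irg proteins on vacuoles, were called higher in 0 of 12 in either genotype, and Atg10 fell by 0.81 in KO, a call lost without any single KO array, while the count was 2 without any single WT array. Gabarap, Sqstm1, Map1lc3b and Atg3, the brightest of that list, were not called. Among 10 inflammasome genes, downstream of guanylate-binding proteins, 0 were called, and no gene on these lists was called between KO and WT at either day. KO lay above WT at day 6 in 3 of 3 other immunity-related GTPases, 7 of 11 interferon-gamma signalling, 16 of 22 response and 12 of 18 type I genes. The same lists gave 0 of 3, 1 of 11, 5 of 22 and 2 of 18 at day 4. Over all genes tested these shares were 48.3% and 51.7%. Autophagy genes gave 5 of 12 and 6 of 12, inflammasome genes 6 of 10 and 2 of 10. The change of sign was therefore not particular to the 8 GTPase genes.

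**Figure D4:**
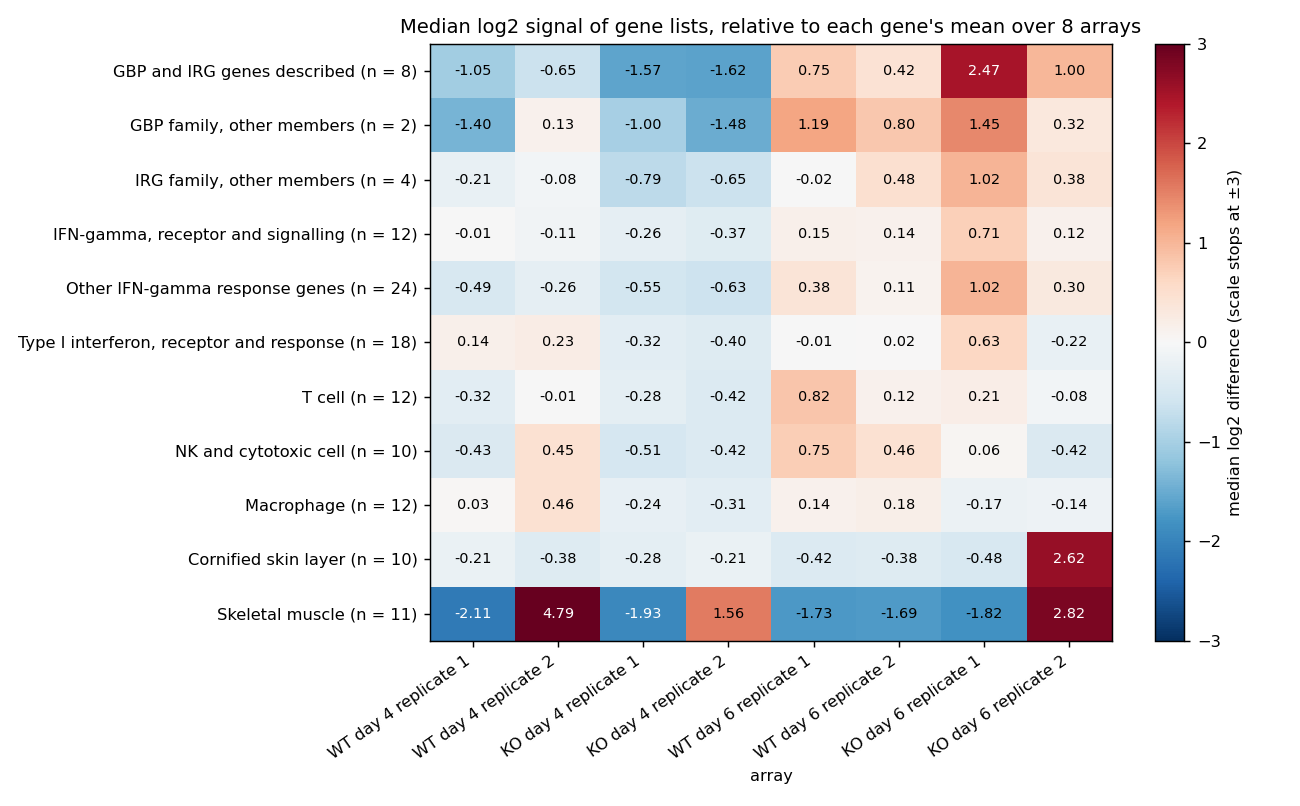
Heat map of the median log2 signal of the 8 GTPase genes and of other gene lists (rows, n measured genes) on each of the 8 arrays (columns), after subtracting each gene's mean over the arrays, with colours limited at 3 in either direction. The row of the 8 GTPase genes runs from -1.62 on KO day 4 replicate 2 to 2.47 on KO day 6 replicate 1, while the skin and muscle rows peak on other arrays.

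Cells that make interferon-gamma were followed by their markers. The summed signal of 10 measured NK and cytotoxic cell markers was 2590.3 to 4377.5 in WT and 2142 to 2582 in KO at day 4, and 5192.9 to 6530.8 in WT and 3459.2 to 4920.8 in KO at day 6. The sums at day 6 exceeded those at day 4 in both genotypes only with Gzmb, a cytotoxic granule protease, included. Without it the other 9 markers summed to 2343.3 to 4083.7 in WT and 1998.2 to 2492 in KO at day 4, and to 3918.3 to 4776.9 in WT and 2169 to 3181.2 in KO at day 6, and the days overlapped in both genotypes. Over the 8 tested markers the median change was 0.37 in KO, with 2 of 8 negative, and 0.49 in WT. Gzmb rose by 3.54 in KO and 2.40 in WT, and Gzma, another granule protease, rose by 1.94 in KO. The count of 2 in KO was 1 without any single KO array, and the count of 1 in WT was 0 without WT day 6 replicate 1 and 2 without WT day 4 replicate 2. The 12 measured T cell markers summed to 1787.9 to 1807.3 in WT and 1286.1 to 2100.8 in KO at day 4, and to 1964.4 to 2486.8 in WT and 1464.3 to 1962.9 in KO at day 6, and 5 of them, Cd3e, Cd4, Cd8b1, Cd5 and Cd6, lay below the filter. Il2rb, a chain of the interleukin-2 receptor, was the only T cell marker called, in KO (2.36), and was lost without any single KO array. The 12 macrophage markers, whose cells express many GTPases, summed to 126768 to 170985 in WT and 96142.3 to 103912 in KO at day 4. At day 6 they summed to 142486 to 143665 in WT and 115490 to 118820 in KO. These sums were lower in KO at both days, and within KO they were higher at day 6 without overlap. Between the days 8 of 12 were positive in KO, with 2 called higher and 1 lower. In WT 5 of 12 were positive, with 1 called higher. These calls changed when single arrays were left out. Neutrophil markers were called in 0 of 7, with 6 of 7 positive and a median of 1.36 in KO and 5 of 7 positive and a median of 0.38 in WT. Their 9 measured genes summed to 2364 to 14299.6 in WT and 3449.2 to 6566.6 in KO at day 4, and to 5353.4 to 6809.6 in WT and 9911.5 to 10329 in KO at day 6. Endothelial markers were positive in 8 of 8 in WT (median 0.92), with Pecam1, Cdh5 and Cldn5 called, 0 of which remained without WT day 6 replicate 1, and in KO 5 of 8 were positive (median 0.27) and 0 called. Their sums were 4663.1 to 5343.5 in WT and 6621.8 to 8324.6 in KO at day 4, and 8262.7 to 12256.8 in WT and 8070.9 to 9279.3 in KO at day 6. The part of cell composition in the changes of the 8 genes was not tested.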

How the data were processed

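RNA of 8 tumours was hybridised to Affymetrix Mouse Genome 430 2.0 arrays. The authors deposited linear MAS5 intensity values, which the submitters' processing notes name as MAS5 and whose 2% trimmed mean was 1000 on each array (version not given in the sources used here). Of 45101 probe sets, 34958 had 1 gene symbol in the platform annotation, 932 several and 9211 none. From these intensity values log2(signal + 16) was taken, the probe set with the highest mean was kept per gene, and the 12976 of 18194 genes whose mean reached the 40th percentile over probe sets were tested with limma 3.58.1 (lmFit, eBayes with trend, R 4.3.3) in 4 groups, with 4 residual degrees of freedom and Benjamini-Hochberg adjustment over all genes. The number of arrays limits the precision. The procedure was tested on simulated data. The genes named were the 8 GTPases, other members of both families, interferon-gamma signalling genes, up to 4 of the highest mean signal or any called gene of other lists, markers beside a result, and the 6 nearest profiles. The 8 genes and all lists were chosen with earlier results of these data known. Alternatives covered the pseudocount, the filter, centring, probe set choice, groups, trend, a replicate block, the t-test of the study's methods and each array left out. Replicate numbers were not taken as pairs.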

Additional observations from a re-analysis of the deposited data

How the results depend on the processing

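Over all genes, the counts called were 2 (KO against WT, day 6), 2 (KO against WT, day 4), 756 (days in WT), 809 (days in KO) and 0 (difference of the KO effects). Median centring gave 1784 in WT and 1342 in KO for the days, with 91.0% and 84.3% of calls higher against 71.4% and 59.6%, after moving the median of all genes by 0.185 and 0.166. Mean of all probe sets gave 473 and 398 (2 of the 8 genes in WT, with Gbp6 lost), no filter 523 for day 6 against day 4 in KO, groups compared alone 11 and 1747, and no trend 9 and 74. At day 6 KO against WT had 0 calls with pseudocount 1, the 60th percentile filter, groups alone, no trend and the replicate block, and at day 4 it had 1 with that filter, with groups alone and without trend. The methods' t-test called 0, 0, 0 and 1 genes after Benjamini-Hochberg (0 of the 8 GTPase genes) and 760, 815, 1399 and 2627 without adjustment (5 of the 8 GTPase genes for the KO days and 4 for the WT days). The replicate block gave 463 (WT) and 325 (KO) for the days, and 2 of the 8 genes in WT, with Gbp6 lost. Deviations of same-numbered arrays correlated above 0.1 in 3 of 6 pairs of groups, those among KO day 6, WT day 4 and KO day 4 (0.215 to 0.274), whose replicate 2 arrays all had high Acta1, and at -0.120 to -0.026 in the 3 pairs with WT day 6. As not every pair passed, the numbers were not taken as pairs. Leaving out each array gave 0 to 26, 0 to 11, 4 to 890, 3 to 1368 and 0 to 9 calls. The median over the 8 genes ranged from 0.28 to 1.65, -0.96 to -0.36, 1.18 to 1.63, 2.60 to 4.07 and 0.94 to 2.24. Without WT day 4 replicate 2, Gbp3 (0.011) and Gbp6 (0.44) reversed at day 4 (ranges over the WT day 4 arrays left out, -0.58 to 0.011 and -0.87 to 0.44), and without KO day 6 replicate 2 the difference of the KO effects was called for Igtp (2.68, limma adjusted p = 0.0445). The cause was not tested. All other directions of the 8 genes were kept in the 4 comparisons and their difference. Where leaving out an array left 1 in a group, that array was assumed to vary like the others.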
